A study of Homo sapiens with 6 samples.

Results

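Transcripts of 10 genes of the Aurora and polo kinases, their activators and the chromosomal passenger complex were followed in H1299 cells depleted of RBP2. H1299 is an established line from a human lung carcinoma, and RBP2, now named KDM5A, is a demethylase of lysine 4 of histone H3. Cells were infected for 72 hours with lentivirus that carried RBP2 shRNA KD1 (shRNA 1), RBP2 shRNA KD2 (shRNA 2) or a scramble shRNA, and each of these 3 groups had 2 arrays. Viral infection was thus common to every group, and the labels give no uninfected cells and no measure of how many cells were infected. All cells grew in RPMI with 10% fetal calf serum. Nothing in the labels says that the arrays of a group came from separate cultures, and the p-values below cover only the spread between these arrays, which may be technical. The 10 genes, AURKA, AURKB, PLK1, PLK4, TPX2, INCENP, BIRC5, CDCA8, HMMR and BORA, were taken by name out of 19775 genes on the array. They had 19 probe sets, and the brightest one over the 6 arrays stood for its gene. Testing required a log2 mean over the arrays of 4 or more, which 9 of the 10 reached. PLK1 lay just inside that limit with a mean of 4.07, and INCENP outside it with 2.50.

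The Aurora and polo kinases drive cells through mitosis. Aurora A works at centrosomes and spindle poles, where TPX2 binds and activates it and where BORA helps it to switch on PLK1, the main polo kinase. Aurora B works at centromeres and later at the midzone as the enzyme of the chromosomal passenger complex, which it forms with the scaffold INCENP, survivin (BIRC5) and borealin (CDCA8). PLK4 starts the duplication of centrioles, and HMMR is a microtubule-binding protein of the spindle poles that also binds hyaluronan. Most of these genes are transcribed in the G2 phase and in mitosis, so their levels in a culture follow the share of cells in those phases. In RNA from a whole culture, fewer cells in these phases and less transcript per cell cannot be told apart.

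Promoter sequences are shown because the genes described below moved together, and because mitotic genes are known to share the cell cycle element TTTGAA and CCAAT boxes. RefSeq promoter sequences (GRCh38.p14) were found for 7 of the 10 genes by symbol: CDCA8, PLK4, HMMR, INCENP, BORA, PLK1 and AURKB. The 250 bases before the annotated start were searched on both strands for both motifs, and overlapping matches were counted. TTTGAA was present in 5 of the 7 genes and in 16.1% of all 27305 genes with a promoter sequence. The 5 include INCENP, which was too dim to test. CCAAT was present in 7 of the 7 and in 37% of all genes, and both motifs in 5 of the 7 and in 5.79% of all genes. For CDCA8, PLK1, HMMR and BORA, which all hold TTTGAA, the 200 bases before the start are printed 5′ to 3′. Each match to TTTGAA or CCAAT, on either strand, is in capitals. The regions are chr1:37692316-37692515 for CDCA8, chr16:23678689-23678888 for PLK1, chr5:163460432-163460631 for HMMR and chr13:72727723-72727922 for BORA, all on the plus strand.
CDCA8: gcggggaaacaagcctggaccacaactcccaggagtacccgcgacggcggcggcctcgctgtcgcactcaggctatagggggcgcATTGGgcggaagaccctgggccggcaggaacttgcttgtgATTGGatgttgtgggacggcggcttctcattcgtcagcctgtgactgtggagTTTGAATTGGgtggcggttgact
PLK1: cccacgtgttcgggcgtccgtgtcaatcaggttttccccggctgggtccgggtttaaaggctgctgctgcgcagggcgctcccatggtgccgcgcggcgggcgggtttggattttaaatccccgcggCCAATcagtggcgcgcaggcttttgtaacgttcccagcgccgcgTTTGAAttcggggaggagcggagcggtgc
HMMR: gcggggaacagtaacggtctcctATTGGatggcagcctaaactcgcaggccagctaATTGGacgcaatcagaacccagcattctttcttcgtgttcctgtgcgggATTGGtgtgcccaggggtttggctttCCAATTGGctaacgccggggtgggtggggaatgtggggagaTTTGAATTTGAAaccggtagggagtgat
BORA: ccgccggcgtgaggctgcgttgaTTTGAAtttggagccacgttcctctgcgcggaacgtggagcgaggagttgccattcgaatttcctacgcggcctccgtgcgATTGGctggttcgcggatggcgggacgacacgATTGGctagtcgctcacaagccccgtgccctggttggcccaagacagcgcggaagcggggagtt
Counted back from the start, TTTGAA began at position -23 in CDCA8, -29 in PLK1 and -177 in BORA. HMMR held it in tandem, from positions -28 and -22. In CDCA8 the last base of TTTGAA is also the first of a reverse-strand CCAAT match, and in HMMR a pair of CCAAT matches on opposite strands overlap. The upstream sequences of PLK4 and AURKB held no TTTGAA on either strand within 250 bases, over all of their annotated starts. These matches are letters in a sequence, and no binding was measured.

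KDM5A itself was below scramble in each of the 4 knockdown arrays. On its main probe set it read 7.42 and 7.27 with shRNA 1 and 6.66 and 6.72 with shRNA 2, against 9.35 and 9.42 in scramble cells. The log2 fold changes were -2.04 with shRNA 1 and -2.69 with shRNA 2 (limma adjusted p = 0.0048 and 0.0024). All values here are GCRMA values on the log2 scale as deposited. The median over the 10526 tested genes lay between 8.49 and 8.56 in the 6 arrays, and the lowest value of every array was 2.24. The line's markers KRT8, KRT18 and VIM were present, with group means of 9.83 to 15, and PTPRC, CD3E, PECAM1, VWF, ALB and SFTPC, markers of other cell types, had group means between 2.24 and 2.33. COL1A1 and ACTA2 had group means between 5.78 and 6.91 and were called in no comparison. With the replicate number as a block, ACTA2 was called lower with shRNA 2 than in scramble cells and higher with shRNA 1 than with shRNA 2. KRT8 was higher with shRNA 1 by 0.74 on the log2 scale (adjusted p = 0.035) and had 0.39 with shRNA 2 (adjusted p = 0.086, and adjusted p = 0.026 with the block).

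The Aurora, polo and passenger genes were lower with 1 of the 2 RBP2 shRNAs. With shRNA 2, 8 of the 9 tested genes were lower than in scramble cells by 3.58-fold to 18.5-fold, and the ninth, PLK1, was 2-fold lower without passing the test. Of all tested genes, 14.4% were called lower and 16.7% higher with shRNA 2. With shRNA 1, 0 of the 9 passed the test in either direction (HMMR was called lower with the replicate number as a block), and their median log2 fold change was 0.09. Of all tested genes, 7.9% were called lower and 3.62% higher with shRNA 1. The cells with shRNA 1 had 19.7-fold more CDCA8 transcript and 16.8-fold more BIRC5 transcript than the cells with shRNA 2.

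**Figure D1:**
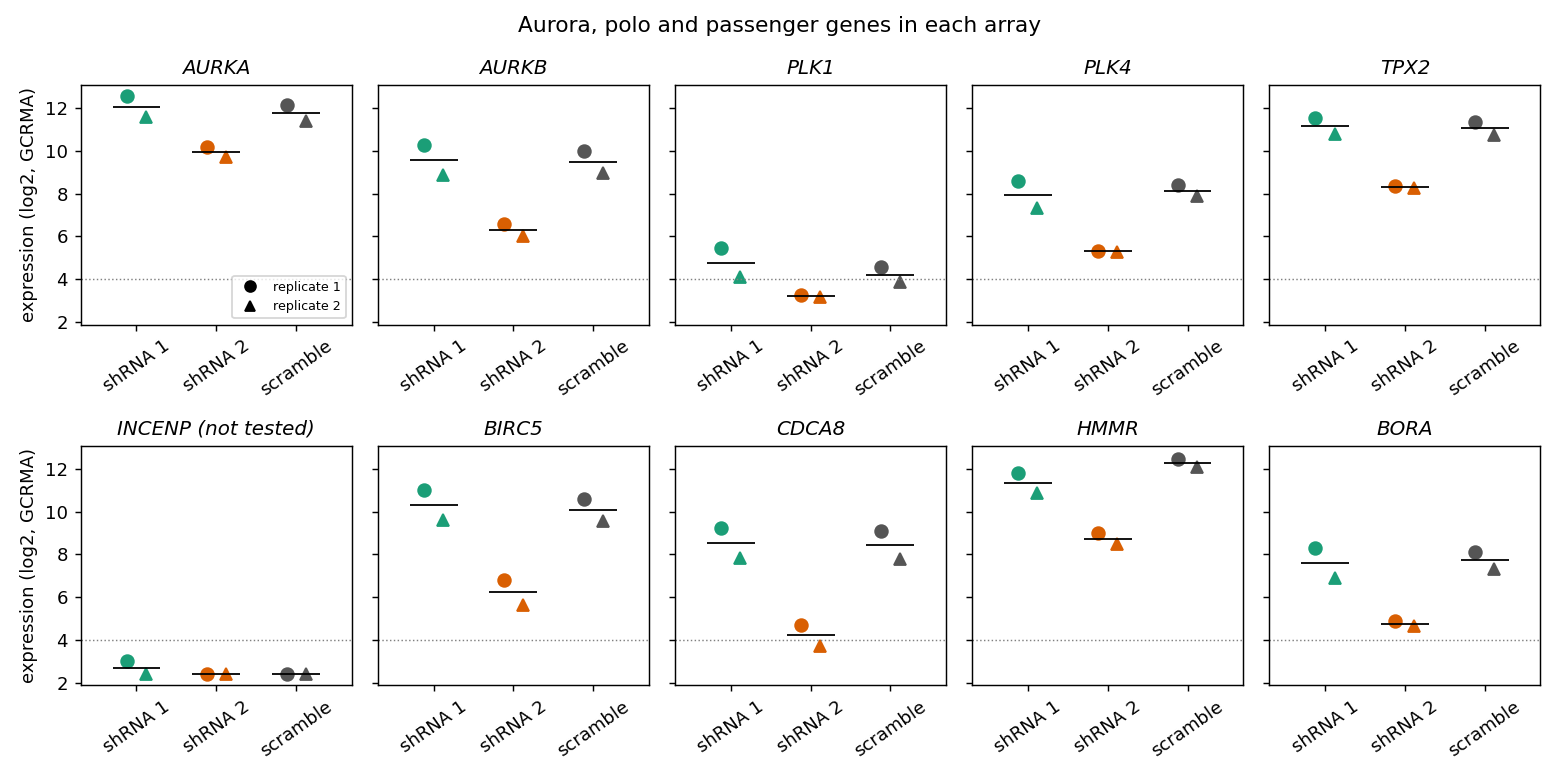
Expression of the 10 genes (log2, GCRMA) in each array, by group. Circles are replicate 1, triangles replicate 2, bars the group mean, and the dotted line the mean of 4 needed for a test. The shRNA 2 arrays lie below the scramble arrays in all 9 tested genes, as in 29.8% of all tested genes. The shRNA 1 arrays overlap the scramble arrays in 8 of the 9 and lie below them in HMMR, as in 27.4% of all tested genes. PLK1 reached the mean of 4 only through the shRNA 1 and scramble arrays. Levels of different genes come from different probes and cannot be compared with each other.

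AURKA, TPX2 and BORA fell with shRNA 2. AURKA read 12.58 and 11.57 with shRNA 1 and 10.17 and 9.71 with shRNA 2, against 12.16 and 11.40 in scramble cells. Both shRNA 2 arrays were below every other array, and the shRNA 1 and scramble arrays overlapped. The log2 fold change of AURKA was -1.84 ± 0.43 with shRNA 2 (SE of limma, adjusted p = 0.031) and 0.29 ± 0.43 with shRNA 1 (adjusted p = 0.71). TPX2, which activates Aurora A on spindle microtubules, read 11.54 and 10.80 with shRNA 1 and 8.34 and 8.28 with shRNA 2, against 11.36 and 10.76 in scramble cells. It was 6.74-fold lower with shRNA 2 (adjusted p = 0.0057), and its shRNA 2 arrays differed from each other by 0.06. With shRNA 1 its log2 fold change was 0.10, with a 95% interval of -0.70 to 0.91. This was the narrowest interval among the 9 genes in the fit without a replicate block. It still allows a change of nearly 1 log2 unit in the cells with shRNA 1. With the replicate number as a block the interval of TPX2 was -0.39 to 0.59.

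BORA, the cofactor through which Aurora A activates PLK1, was also lowest in the cells with shRNA 2. It read 8.28 and 6.88 with shRNA 1 and 4.87 and 4.64 with shRNA 2, against 8.14 and 7.34 in scramble cells. Its log2 fold change was -2.98 ± 0.52 with shRNA 2 (adjusted p = 0.015), and -0.16 with shRNA 1 (adjusted p = 0.88). PLK1, the kinase that BORA helps to activate, was dim on this array. It read 5.45 and 4.09 with shRNA 1 and 3.24 and 3.19 with shRNA 2, against 4.58 and 3.85 in scramble cells. Both shRNA 2 arrays were again the lowest, but at a log2 fold change of -1.0 ± 0.50 the gene missed the threshold (adjusted p = 0.19, and adjusted p = 0.054 with the replicate number as a block). PLK1 reached the mean of 4 only through the shRNA 1 and scramble arrays. It has 1 probe set, and GCRMA compresses differences between dim values, so its fold changes may be understated.

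The chromosomal passenger genes CDCA8 and BIRC5 had the largest falls of the 9 genes with shRNA 2. CDCA8, borealin, read 9.23 and 7.81 with shRNA 1 and 4.71 and 3.73 with shRNA 2, against 9.08 and 7.78 in scramble cells. It was 18.5-fold lower with shRNA 2, a log2 fold change of -4.21 ± 0.68 (adjusted p = 0.012) and the fall of rank 14 among the 10526 genes. CDCA8 has 1 probe set, and its shRNA 2 replicate 2 array lay below 4, so the size of this fall is uncertain. Its shRNA 1 and scramble values nearly coincided, with a log2 fold change of 0.09 ± 0.68 (adjusted p = 0.96). BIRC5, survivin, read 11.01 and 9.59 with shRNA 1 and 6.81 and 5.64 with shRNA 2, against 10.58 and 9.56 in scramble cells. It was 14.4-fold lower with shRNA 2 (adjusted p = 0.014, rank 27), and its log2 fold change with shRNA 1 was 0.23 (adjusted p = 0.86). AURKB, the kinase of the complex, read 10.27 and 8.86 with shRNA 1 and 6.60 and 6.0 with shRNA 2, against 9.97 and 8.97 in scramble cells. It was 9.02-fold lower with shRNA 2 (adjusted p = 0.016, rank 75), with a log2 fold change of 0.09 with shRNA 1 (adjusted p = 0.95).

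INCENP, the scaffold of the passenger complex, gave no usable signal. Its 1 probe set read 3.00 and 2.41 with shRNA 1 and 2.38 and 2.40 with shRNA 2, against 2.41 and 2.41 in scramble cells. These values lie close to the lowest value of the arrays, so no fold change is given, and the level of INCENP in these cells was not measurable with this probe set.

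PLK4, the kinase that starts centriole duplication, read 8.59 and 7.32 with shRNA 1 and 5.32 and 5.29 with shRNA 2, against 8.41 and 7.88 in scramble cells. It was 7.16-fold lower with shRNA 2 (log2 fold change -2.84 ± 0.44, adjusted p = 0.011). With shRNA 1 its log2 fold change was -0.19 ± 0.44 (adjusted p = 0.82), and its arrays lay on both sides of the scramble arrays.

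HMMR was the 1 gene of the 9 in which every array of both shRNAs lay below both scramble arrays, which held for 9.03% of all tested genes. It read 11.82 and 10.87 with shRNA 1 and 9.01 and 8.48 with shRNA 2, against 12.45 and 12.09 in scramble cells. With shRNA 2 it was 11.5-fold lower (log2 fold change -3.52 ± 0.37, adjusted p = 0.0050). With shRNA 1 it was 1.9-fold lower, or -0.92 ± 0.37 on the log2 scale, which missed the threshold (adjusted p = 0.18) and passed with the replicate number as a block (adjusted p = 0.021). Its second probe set gave -1.10 ± 0.45 with shRNA 1 (adjusted p = 0.20) and -3.79 ± 0.45 with shRNA 2 (adjusted p = 0.0075). The other 8 genes had log2 fold changes of -0.19 to 0.56 with shRNA 1, all without passing. Whether HMMR differs from them in its response to shRNA 1 was not tested.

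**Figure D2:**
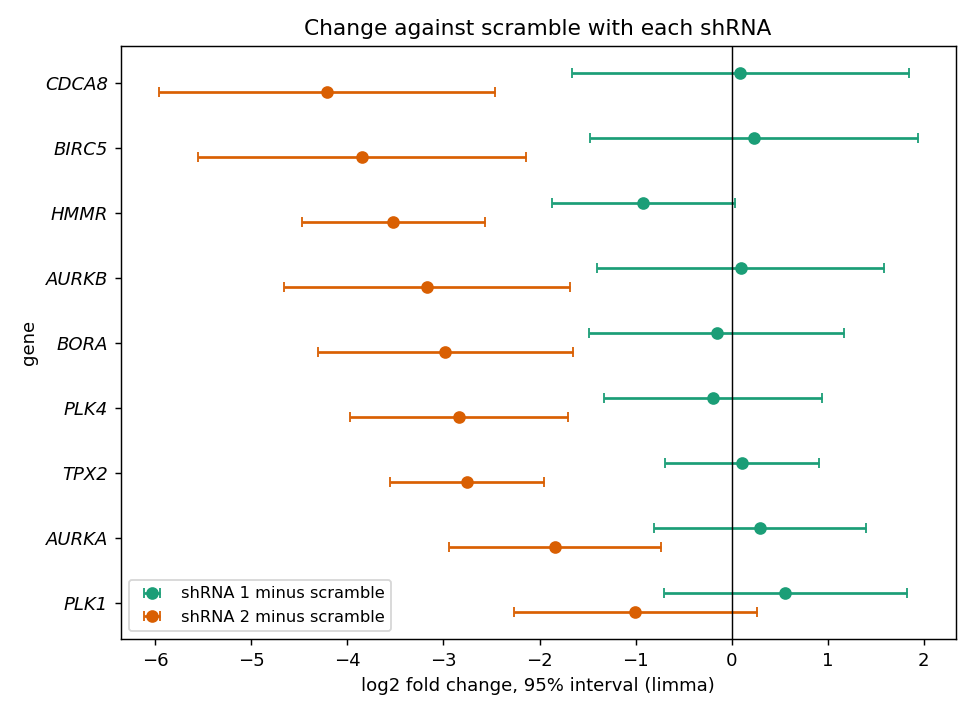
Log2 fold change of the 9 tested genes against scramble, with limma's 95% interval, for shRNA 1 and shRNA 2 (2 arrays in each group). Genes are ordered by the change with shRNA 2, from CDCA8 at -4.21 to PLK1 at -1.0, and the shRNA 1 values lie between -0.92 and 0.56 with intervals that all include 0.

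Over the 9 tested genes, 8 were called lower and 0 higher with shRNA 2. The median log2 fold change of the 9 was -2.98, against 0.08 over all 10526 genes. In 9 of 9 both shRNA 2 arrays lay below both scramble arrays, which held for 29.8% of all tested genes. The 9 include PLK1, which reached the mean of 4 only through the shRNA 1 and scramble arrays. With the replicate number as a block the same 8 were called, where 22.2% of all tested genes were called lower and 28.4% higher. The count was smaller without any 1 of the 4 arrays of this comparison, a fit in which the lone array of a group is assumed to vary like the other groups. Without shRNA 2 replicate 1 or without shRNA 2 replicate 2 only HMMR was called (1 gene each), without scramble replicate 1 HMMR and TPX2 (2 genes), and without scramble replicate 2 the count was 7, all of the 8 but AURKA. Over all tested genes the calls in these 4 fits were 622, 1073, 969 and 1422, against 3264 with all arrays. The sign stayed negative in all 9 genes under each of these omissions, and the log2 fold change of CDCA8 stayed between -4.86 and -3.56.

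With shRNA 1, limma called 0 of the 9 genes, 0 had an unadjusted p under 0.05, and HMMR was called lower with the replicate number as a block. With the block, 16.8% of all tested genes were called lower and 12.8% higher with shRNA 1. The arrays of the 2 groups overlapped in 8 of the 9 genes, all but HMMR, and both shRNA 1 arrays lay below both scramble arrays in 27.4% of all tested genes. The 95% intervals are wide, such as -1.66 to 1.84 for CDCA8 and -1.48 to 1.93 for BIRC5. With the block they were -0.27 to 0.45 for CDCA8 and -0.10 to 0.56 for BIRC5.

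Set directly against each other, shRNA 1 gave higher values than shRNA 2 in all 9 genes, and the arrays did not overlap in any of them. Both shRNA 1 arrays lay above both shRNA 2 arrays in 32.2% of all tested genes. Limma called 8 of the 9 higher, where 17.8% of all tested genes were called higher and 23.3% lower, and PLK1 at 1.56 ± 0.50 did not pass (adjusted p = 0.058). With the block 9 of the 9 were called (PLK1 adjusted p = 0.013), where 25.1% of all tested genes were called higher and 32.6% lower. PLK1 reached the mean of 4 only through the shRNA 1 and scramble arrays, so its place in these counts rests on that filter. The differences were 4.30 ± 0.68 on the log2 scale for CDCA8 (adjusted p = 0.0080), 4.07 ± 0.67 for BIRC5 (adjusted p = 0.0087) and 3.27 ± 0.58 for AURKB (adjusted p = 0.011). CDCA8 had rank 7 and BIRC5 rank 12 among all tested genes in this difference. The others were 2.86 for TPX2, 2.82 for BORA, 2.65 for PLK4, 2.6 for HMMR and 2.13 for AURKA. Without shRNA 2 replicate 1 the count was 4 (BIRC5, CDCA8, HMMR and TPX2) and without shRNA 2 replicate 2 it was 2 (HMMR and TPX2), in fits that called 1874 and 2336 of all tested genes. KDM5A differed between the same groups by 0.65 ± 0.11, with the lower level in the cells with shRNA 2, and whether that difference in depletion accounts for the difference in the mitotic genes was not tested.

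The mean of both shRNAs against scramble therefore averages unequal changes. HMMR (-2.22 ± 0.32, adjusted p = 0.022) and TPX2 (-1.32 ± 0.27, adjusted p = 0.043) were called lower, 2 of the 9 genes, where 6.92% of all tested genes were called lower and 5.61% higher. With the replicate number as a block 8 of the 9 were called lower, all but PLK1, where 17.5% of all tested genes were called lower and 17.4% higher. Values of CDCA8 at -2.06 (adjusted p = 0.082), BIRC5 at -1.81 (0.10), BORA at -1.57 (0.082), AURKB at -1.54 (0.11), PLK4 at -1.52 (0.064) and AURKA at -0.77 (0.22) did not pass without it. Leaving out shRNA 1 replicate 2, either shRNA 2 array or either scramble array took the count to 0, in fits in which limma called 7, 0, 0, 0 and 0 of the 10526 tested genes, with 2246 to 3031 at an unadjusted p under 0.05. Without shRNA 1 replicate 1 the log2 fold changes of all 9 genes were negative, from -2.46 for HMMR to -0.56 for PLK1.

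These genes also separated the 2 arrays within each group. Replicate 1 was higher than replicate 2 in 9 of 9 genes with shRNA 1, in 9 of 9 with shRNA 2 and in 9 of 9 in scramble cells, whereas 49.5%, 44.5% and 47.6% of all tested genes were. The median gap was 1.36 on the log2 scale with shRNA 1, 0.46 with shRNA 2 and 0.76 in scramble cells, and over all tested genes it was 0, -0.02 and 0. In scramble cells the gap ran from 0.36 for HMMR to 1.30 for CDCA8. In the cells with shRNA 1 it ran from 0.74 for TPX2 to 1.42 for CDCA8, and 8 of the 9 exceeded 0.78, the 95th percentile of all tested genes. In the cells with shRNA 2 it was 0.03 for PLK4, 0.05 for PLK1 and 0.06 for TPX2, and 1.18 for BIRC5. The labels do not say what the replicate number stands for. With it as a block the SE of the change of CDCA8 with either shRNA was 0.14, against 0.68 without it.

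**Figure D3:**
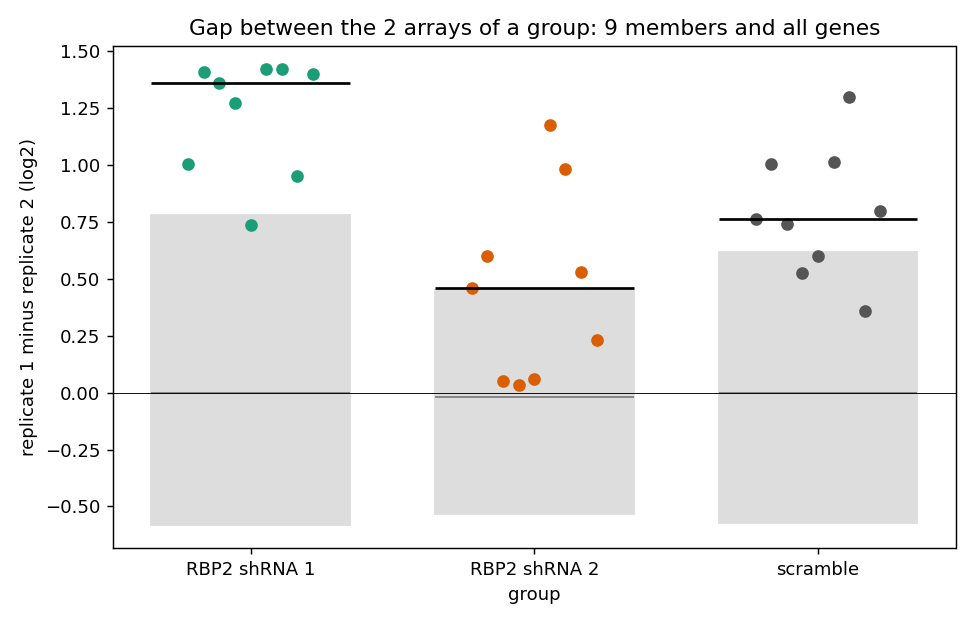
Replicate 1 minus replicate 2 (log2) within each group. Points are the 9 tested genes, black bars their median (1.36 with shRNA 1, 0.46 with shRNA 2, 0.76 in scramble cells), and grey boxes span the 5th to the 95th percentile of all 10526 tested genes, with a grey line at their median. All points lie above 0.

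Within each replicate number the shRNA 2 array lay below the scramble array in 9 of 9 genes, and 36% of all tested genes were lower in both pairs. PLK1, 1 of the 9, reached the mean of 4 only through the shRNA 1 and scramble arrays. Between the arrays numbered 1, the log2 differences of shRNA 2 minus scramble ran from -4.37 for CDCA8 to -1.35 for PLK1, with a median of -3.26. Between the arrays numbered 2 they ran from -4.05 for CDCA8 to -0.66 for PLK1, with a median of -2.70. The differences of shRNA 1 minus scramble had medians of 0.18 and 0.03 in the same pairs, with HMMR at -0.63 and -1.22. AURKA, PLK1, TPX2, BIRC5 and CDCA8 were above scramble in both pairs, as were 40.9% of all tested genes, and AURKB, PLK4 and BORA were above in the arrays numbered 1 and below in those numbered 2.

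Other probe sets of the same genes moved the same way with shRNA 2. There were 9 of them in 5 genes, 7 with a mean of at least 4, and all 7 had negative log2 fold changes. The share over all probe sets was not computed. Among the 7 are BIRC5 probe sets with shRNA 2 means of 2.71 and 3.19, which reached 4 only through the other arrays. BIRC5 had -3.18 on a further probe set (adjusted p = 0.026). A dimmer one gave -3.15 (adjusted p = 0.0088) but read 3.09 and 3.28 with shRNA 2. It reached the mean of 4 only through the other arrays, so this call rests on that filter and its fold change may be understated. Another probe set of BIRC5 read 8.75 and 7.16 with shRNA 1 and 3.17 and 2.24 with shRNA 2, against 8.53 and 7.06 in scramble cells, and since 1 shRNA 2 array lies at about the lowest value of the arrays no fold change is given for it. PLK4 gave -2.60 on its second probe set (adjusted p = 0.017) and AURKA gave -1.74 (adjusted p = 0.038). A dimmer probe set of AURKA read 4.98 and 4.92 with shRNA 1 and 4.22 and 4.71 with shRNA 2, against 4.98 and 4.98 in scramble cells. Its log2 fold change of -0.51 did not pass (adjusted p = 0.10). Both scramble arrays and shRNA 1 replicate 1 gave the same value there, so this probe set may not follow the level of AURKA. The second probe set of AURKB read 5.22 and 2.94 with shRNA 1 and 2.62 and 2.62 with shRNA 2, against 4.43 and 2.94 in scramble cells, and the dimmest of PLK4 stood at the lowest value of the arrays in all but 1 array. The main probe sets of AURKA, TPX2, BIRC5 and CDCA8 have names that end in _s_at, which marks probes shared by several transcripts.

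Other genes that work with these kinases were given by 8 lists with 81 genes, of which 73 were tested. With shRNA 2, 37 fell and 1 rose (50 and 3 with the block), with a median log2 fold change of -1.33, where 14.4% of all tested genes fell and 16.7% rose (22.2% and 28.4% with the block). With shRNA 1, 1 fell and 0 rose (5 and 5 with the block), with a median of 0, where 7.9% of all tested genes fell and 3.62% rose (16.8% and 12.8% with the block). Between the shRNAs, 40 were higher and 2 lower with shRNA 1 than with shRNA 2 (52 and 5 with the block), against 17.8% and 23.3% of all tested genes (25.1% and 32.6% with the block). In the mean of both shRNAs 13 fell and 0 rose (41 and 2 with the block), against 6.92% and 5.61% of all tested genes (17.5% and 17.4% with the block). The counts of each list below stand against the same shares. HASPIN and PLK3, 2 of the 73, had means under 4 with shRNA 2 and reached the limit only through the other arrays, so their fold changes may be understated.

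Cytokinesis genes, which act with the passenger complex and PLK1 at the spindle midzone, were called lower with shRNA 2 in 8 of 8 tested (median -3.12) and in 0 of 8 with shRNA 1 (median -0.13). With the block, 8 were again called lower with shRNA 2, and 1, KIF20A, was called higher with shRNA 1. CEP55, an abscission factor, had log2 fold changes of -3.56 with shRNA 2 (adjusted p = 0.0052) and -0.27 with shRNA 1, and ECT2, the activator of RhoA at the cleavage site, of -2.71 (adjusted p = 0.0061) and -0.17. KIF20A, a kinesin of the midzone, had -3.52 (adjusted p = 0.012) and 0.76 (adjusted p = 0.44, and adjusted p = 0.022 with the block), and CIT was not analysed here. Spindle and kinetochore proteins, many of them substrates, were called lower in 9 of 12 with shRNA 2 (median -2.69; 10 with the block) and in 0 of 12 with shRNA 1 (median 0.15; 1 lower and 1 higher with the block). The spindle motor KIF11 had -3.12 with shRNA 2 (adjusted p = 0.0040) and 0.40 with shRNA 1, the checkpoint kinase-like BUB1B -3.49 (adjusted p = 0.0052) and 0.15, and the microtubule polymerase CKAP5 -0.28 (adjusted p = 0.31) and 0.25.

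Among genes that recruit the passenger complex to centromeres, 3 of 5 tested were called lower with shRNA 2 (median -2.53; 4 with the block) and 0 of 5 with shRNA 1 (median -0.01). SGO2, a shugoshin that binds the complex, had -2.53 with shRNA 2 (adjusted p = 0.013) and 0.04 with shRNA 1, and BUB1, whose histone mark places shugoshin, -2.75 (adjusted p = 0.014) and -0.01. HASPIN, the histone kinase that creates the docking site of survivin, had -0.83 (adjusted p = 0.23) and 0.32. SGO1 was too dim to test, with group means of 3.37 with shRNA 1, 2.24 with shRNA 2 and 3.21 in scramble cells. Of the genes of mitotic entry 8 of 11 were called lower with shRNA 2 (median -2.22; 10 with the block) and 0 of 11 with shRNA 1 (median -0.03; 1 higher with the block). The phosphatase CDC25C had -4.46 with shRNA 2 (adjusted p = 0.0050) and -0.12 with shRNA 1, the kinase CDK1 -3.06 (adjusted p = 0.0069) and -0.26, and ARPP19, an inhibitor of the phosphatase PP2A, 0.28 (adjusted p = 0.25) and -0.33.

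The anaphase-promoting complex and its regulators, which degrade Aurora and polo kinases at the end of mitosis, were called lower in 5 of 13 with shRNA 2 (median -0.40; 7 with the block) and in 0 of 13 with shRNA 1 (2 with the block). The subunits CDC23 and CDC27 had -2.03 and -1.96 with shRNA 2 (adjusted p = 0.0033 and 0.0032) and -0.42 and -0.11 with shRNA 1, and the subunit ANAPC7 had -0.40 (adjusted p = 0.32) and 0.37. ANAPC1 was not analysed here. Of the centriole duplication genes, partners of PLK4, 2 of 7 were called lower with shRNA 2 (5 with the block), STIL at -2.45 (adjusted p = 0.0089) and CEP152 at -2.18 (adjusted p = 0.017), while CEP192 had -0.27 (adjusted p = 0.20). CENPJ was not analysed here. With shRNA 1 these 3 had -0.47, 0.46 and 0.10, and 0 of the 7 were called (1 lower with the block).

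Transcription factors of the G2 and mitosis program were called lower in 2 of 14 with shRNA 2 (5 lower and 2 higher with the block) and in 1 of 14 with shRNA 1 (1 lower and 1 higher with the block), with medians of -0.21 and 0.11. NFYA, a subunit of the factor that binds CCAAT, had -1.04 with shRNA 2 (adjusted p = 0.016) and -0.48 with shRNA 1 (adjusted p = 0.18), while its partners NFYB and NFYC, picked after their values had been seen, had 0.53 and 0.30 with shRNA 2, which did not pass (adjusted p = 0.33 and 0.086) and which passed with the block (adjusted p = 0.032 and 0.049). RBL1, the pocket protein p107, had -0.92 with shRNA 2 (adjusted p = 0.063, and adjusted p = 0.023 with the block) and fell by 1.30 with shRNA 1 (adjusted p = 0.049). LIN52, a subunit of the MuvB core, had -0.34 (adjusted p = 0.26) and 0.36, and E2F4 was too dim to test. LIN9, with NFYA the other gene called lower with shRNA 2, had -0.59 (adjusted p = 0.019), and 0.07 with shRNA 1 (adjusted p = 0.75). LIN9 was likewise picked after its values had been seen. The activators FOXM1 and MYBL2, also picked after their values had been seen, had -1.90 and -1.98 with shRNA 2, which did not pass (adjusted p = 0.053 and 0.067) and which passed with the block (adjusted p = 0.0015 and 0.0032).

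Of the relatives of the Aurora and polo kinases, 0 of the 3 tested were called lower with shRNA 2 and 1 was called higher (1 and 1 with the block). PLK2, a polo kinase of stress and neuronal signalling, rose by 1.64 with shRNA 2 (adjusted p = 0.044) and had 0.38 with shRNA 1. PLK3 had -0.47 with shRNA 2 (adjusted p = 0.063, and adjusted p = 0.044 with the block) and -0.15 with shRNA 1, and AJUBA, a LIM protein that can activate Aurora A, -0.04 (adjusted p = 0.95) and 0.84 (adjusted p = 0.20, and adjusted p = 0.0097 with the block). AURKC and PLK5 stood at the lowest value of the arrays in all groups, and AURKAIP1 was not analysed here.

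**Figure D4:**
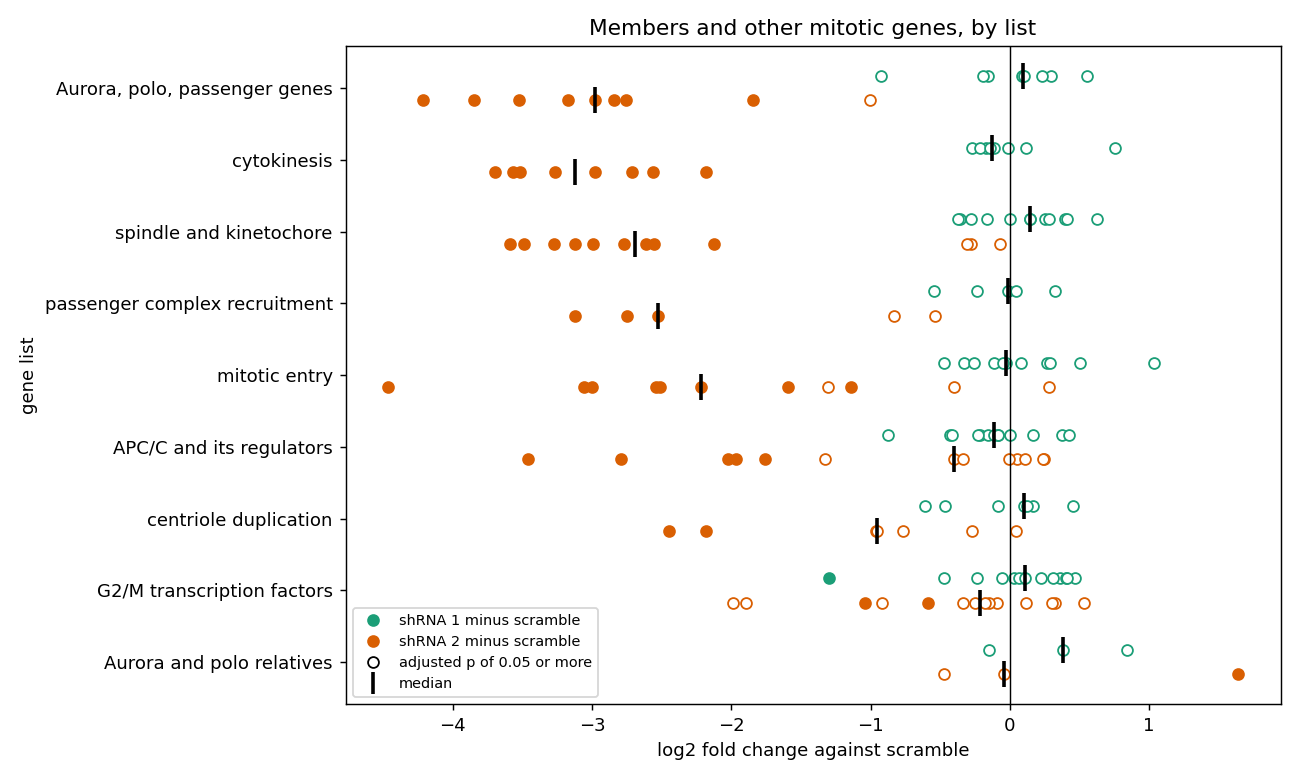
Log2 fold change against scramble with shRNA 1 (upper row of each list) and shRNA 2 (lower row) for the 9 tested genes and for the tested genes of 8 other lists. Filled points have a limma adjusted p under 0.05, and black ticks are medians. The shRNA 2 medians run from -3.12 in cytokinesis to -0.04 in the kinase relatives, and the shRNA 1 medians from -0.13 to 0.38.

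Among the genes outside the set, those whose 6-array profile lay closest to the median of the 9 were ZNF492, a zinc finger gene, CCNA2, cyclin A2, MCM7, a subunit of the replicative helicase, KIF4A, a chromosome-bound kinesin, and SPAG5, a spindle protein. Profiles were taken as each array minus the mean of the scramble arrays, and their root mean square distances to the median over 6 arrays were 0.10, 0.11, 0.12, 0.13 and 0.13 on the log2 scale. CCNA2, for example, had 0.64 and -0.49 with shRNA 1 and -2.77 and -3.24 with shRNA 2, against 0.37 and -0.37 in scramble cells. The median of the 9 genes had 0.80 and -0.61, -2.86 and -3.10, and 0.38 and -0.38 in the same arrays. Within the set, BORA (0.14), AURKB (0.17), PLK4 (0.21) and TPX2 (0.24) lay closest to that median. PLK1 (1.17) and CDCA8 (0.76) lay farthest, PLK1 with a smaller and CDCA8 with a larger fall with shRNA 2, and HMMR (0.69) differed by its lower shRNA 1 values.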

How the data were processed

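The submitters' processing notes name GCRMA, without a version, as the method by which the authors made the deposited values, and their range shows a log2 scale. This method estimates background from probe sequence, and dim values pile up at a floor: 37.8% to 38.7% of each array stood at 2.24. No scanner files or detection calls were used here, so the background correction could not be varied, and no arrays were identical (0 pairs). Of 54675 probe sets, 41097 had 1 gene symbol, 1801 several and 11777 none in the platform annotation. Gene identifiers matched RefSeq for 41043, and 0 symbols changed.

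The comparisons used limma (3.58.1, R 4.3.3), in 1 model over all 6 arrays (3 residual and 2.09 prior degrees of freedom). A gene was called at a two-sided Benjamini-Hochberg adjusted p under 0.05 over all 10526 tested genes. SE values and 95% intervals use limma's moderated spread. The fit was tested on simulated data. Precision is limited by the number of arrays, with a median SE of 0.17 for a single shRNA against scramble. Both comparisons with scramble share the same 2 scramble arrays.

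The sample titles give replicate numbers. Across genes, arrays with the same number deviated together from their groups. The correlations were 0.75 (shRNA 1 with scramble), 0.51 (shRNA 2 with scramble) and 0.53 (shRNA 1 with shRNA 2). The main fit did not use the replicate numbers. Because of these correlations, a fit with the replicate number as a block is given beside calls on main probe sets that it changes. Alternatives were the block, other filters on dim genes, other choices of probe set, quantile normalization, an intensity trend in the variance, the 2 compared groups alone and each array left out.

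The 10 genes and all lists were chosen with earlier results of these data known. From each other list the text names the 2 genes with the smallest adjusted p and the 1 with the largest p in the mean of both shRNAs. It also names genes that could not be tested. NFYB, NFYC, FOXM1, MYBL2 and LIN9 were added after their values had been seen. The 5 closest profiles were named by distance.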

Additional observations from a re-analysis of the deposited data

How the results depend on the processing

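All directions held with shRNA 2. Under each alternative run, those of the 9 genes that were tested were all lower than scramble. With shRNA 1 they were all higher than with shRNA 2. INCENP, which entered only the fit with no filter, is left out of this statement because it was not measurable. The number of called genes with shRNA 2 was 8, and it was 2 with no filter on dim genes, 5 without probe sets that can cross-hybridise (7 genes then tested) and 1 to 8 when single arrays were left out. Between the shRNAs it was 8, and it was 1 with no filter, 5 without such probe sets and 2 to 9 with single arrays left out. For the mean of both shRNAs it was 2, and it was 8 with the replicate number as a block, 0 with no filter, 1 without such probe sets and 0 to 2 with single arrays left out. With shRNA 1 it was 0, and it was 1 with the block. It was also 0 with single arrays left out, in fits in which limma called 0 to 191 of all tested genes (2306 to 2716 at an unadjusted p under 0.05). Leaving out an array removes 1 of 3 residual degrees of freedom, and dropping the filter adds 9249 dim genes to the fit and the adjustment. With quantile normalization the counts were 3 for the mean of both shRNAs, 8 with shRNA 2 and 9 between the shRNAs. Over all genes they were 1462, 3357 and 4312. With the mean of all probe sets they were 2, 7 and 7 (1165, 2913 and 3807 of 9555 genes). With a mean of at least 6 required they were 3, 8 and 8 of 8 tested genes (1400, 3024 and 3916 of 8867 genes). With shRNA 1 each of these settings called 0 genes. In the main fit the calls over all genes were 1318 for the mean of both shRNAs, 1213 with shRNA 1, 3264 with shRNA 2 and 4327 between the shRNAs. With the block they were 3670, 3117, 5324 and 6071, and with no filter 332, 311, 1470 and 2477 of 19775 genes. Without probe sets that can cross-hybridise they were 1027, 979, 2507 and 3313 of 7905 genes.

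Signs with shRNA 1 were not stable. With single arrays left out, the log2 fold changes ran from -0.21 to 0.80 for AURKA, -0.61 to 0.80 for AURKB, -0.12 to 1.24 for PLK1, -0.83 to 0.44 for PLK4, -0.26 to 0.47 for TPX2, -0.48 to 0.94 for BIRC5, -0.62 to 0.80 for CDCA8 and -0.86 to 0.54 for BORA, and from -1.40 to -0.45 for HMMR, whose sign held. AURKA had -0.031 on its dimmest probe set, where both scramble arrays and shRNA 1 replicate 1 gave the same value. The -0.031 is also its value without probe sets that can cross-hybridise. For the mean of both shRNAs PLK1 ran from -0.59 to 0.15. The dimmest probe sets of AURKB and PLK4 had means under 4 and were not tested.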
